A study of Mus musculus with 24 samples.

Results

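DUX induction was examined in mouse embryonic stem (ES) cells that lack TRIM33. The comparison holds 4 of the series' 24 RNA-seq libraries, chosen by their titles: 2 libraries of TRIM33-KO cells after 16 h of doxycycline (DOX) and 2 of the same cells without it. All belong to the KH2 line and carry DUX behind a tetracycline response element (TRE), a promoter that DOX switches on, and their titles also bear the mark pLV2, which the labels do not explain. The references are 2 WT lines with the same transgene and the same mark, called WT line 1 and WT line 2 after the number in their titles, each with 2 libraries without DOX and 2 after 16 h of DOX. All 12 of these libraries share the TRE-DUX transgene, so uninduced cells also carry it. Neither the number of clones behind the TRIM33-KO cells nor the WT line they came from is given in the labels. No label ties the replicates to separate cultures, so p-values measure the spread between these libraries, which may be technical. In 8 libraries of the series the tag for treatment and the title contradict each other. Among them are the 2 TRIM33-KO libraries whose titles carry no DOX, since their tag says DOX. Groups here rest on the titles.

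DUX is a double homeobox transcription factor that is active when the mouse embryo begins to transcribe its own genome. In ES cells it turns on genes and retroviral repeats that are otherwise silent after the 2-cell stage, among them the Zscan4 cluster and MERVL, an endogenous retrovirus of the ERVL class whose long terminal repeat is MT2_Mm. TRIM33 (TIF1-gamma) is a chromatin reader of the TIF1 family, to which TRIM24, TRIM28 and TRIM66 also belong. It binds SMAD proteins in the TGF-beta, Nodal and activin pathway, and it has been linked to the silencing of some endogenous retroviruses. The series title places the homeobox factor DUXBL in the exit from the 2-cell-like state.

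Gene counts in the 4 libraries ranged from 11784696 to 19136869, the same range as over the 16 pLV2 libraries fitted together. Repeat subfamilies took 8.05% and 7.58% of all counts without DOX and 23.0% and 18.9% with DOX. The DOX libraries agreed well apart from a few features: of 10344 genes with a mean of at least 100 counts, 98.4% differed between them by less than 0.5 on the log2 scale. DOX replicate 2 stood apart in CT010467.1, a ribosomal RNA gene, which took 0.251% and 0.209% of gene counts without DOX, 0.643% in DOX replicate 1 and 12.9% in DOX replicate 2. Called counts of the gene lists are given with and without that library where they moved by 1.5 times or more. In bulk RNA, more responding cells and more RNA per responding cell cannot be told apart.

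Trim33 itself served as the check of the labels. Its level in CPM (edgeR's depth-scaled count, relative to the gene counts of a library) was 20.3 and 21.4 without DOX and 18.1 and 16.9 with DOX in TRIM33-KO, against 85.2 to 140.0 in the 8 WT libraries, so the TRIM33-KO libraries lay below every WT library. Transcripts of the gene remained, and where they start or end within it cannot be read from gene counts. After DOX Trim33 fell by 0.25 on the log2 scale (SE 0.09, adjusted p = 0.0334, edgeR quasi-likelihood test with Benjamini-Hochberg adjustment, as for all adjusted p values here). That call was lost with DESeq2 (adjusted p = 0.293), with median-of-ratios scaling (0.132) and without any 1 of the 4 libraries (0.0631 to 0.411). Among the other TIF1 genes, Trim28, the corepressor that zinc finger repressors recruit to retroviral sequence, rose from 1323 and 1298 to 1867 and 1847 CPM (log2 0.50, SE 0.06, adjusted p = 5.73e-06). Trim24 was at 221 and 253 CPM without DOX and 242 and 271 with it, and its log2 value of 0.11 missed the threshold (adjusted p = 0.372).

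The Dux counts followed the titles. Duxf3, the Dux gene in the annotation, had 0 and 2 counts without DOX and 78 and 54 with it, which is at least 43.6-fold higher against the floor of 3 counts per library. Whether a Duxf3 count came from the transgene or from an endogenous copy cannot be told apart. Duxbl1, the related homeobox gene named in the series title as DUXBL, rose from 0.248 and 0.576 to 14.9 and 13.9 CPM (log2 5.09, SE 0.35, adjusted p = 5.19e-09). The log2 value ranged from 4.64 to 5.83 with any 1 of the 4 libraries left out. Its rise in the WT lines was 4.47 and 4.28, and the difference from their mean, 0.71, missed the threshold (adjusted p = 0.727).

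DOX changed 6572 of 18079 tested genes in TRIM33-KO, or 36.4%. Of these 2961 rose, 16.4% of the genes tested, and 3611 fell, 20.0%. The rising and falling genes differed in size. A log2 change of at least 1 was reached by 1690 rising genes (9.35% of those tested) and 540 falling genes (2.99%), one of at least 2 by 1285 and 77, and one of at least 4 by 937 and 10. The median over all tested genes was -0.09, and the median of the falling genes was -0.52. The balance of rising and falling genes depended on the scaling: 3480 rose and 2659 fell with median-of-ratios factors, 3021 and 1944 with DESeq2, and 2619 and 4448 with repeats in the library size (a median of -0.14). More genes rose than fell without any 1 of the 4 libraries: 2693 and 2419 or 2656 and 2459 without replicate 1 or 2 of the uninduced group, and 2297 and 2063 or 3058 and 1989 without DOX replicate 1 or 2. The falling count was thus over 1.5 times smaller without either DOX library. Under each of these the median of all genes moved by less than 0.1, so falls near that size depend on the scaling. Counts of list members under another setting are read beside the all-gene counts under that setting, since both move.

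**Figure D1:**
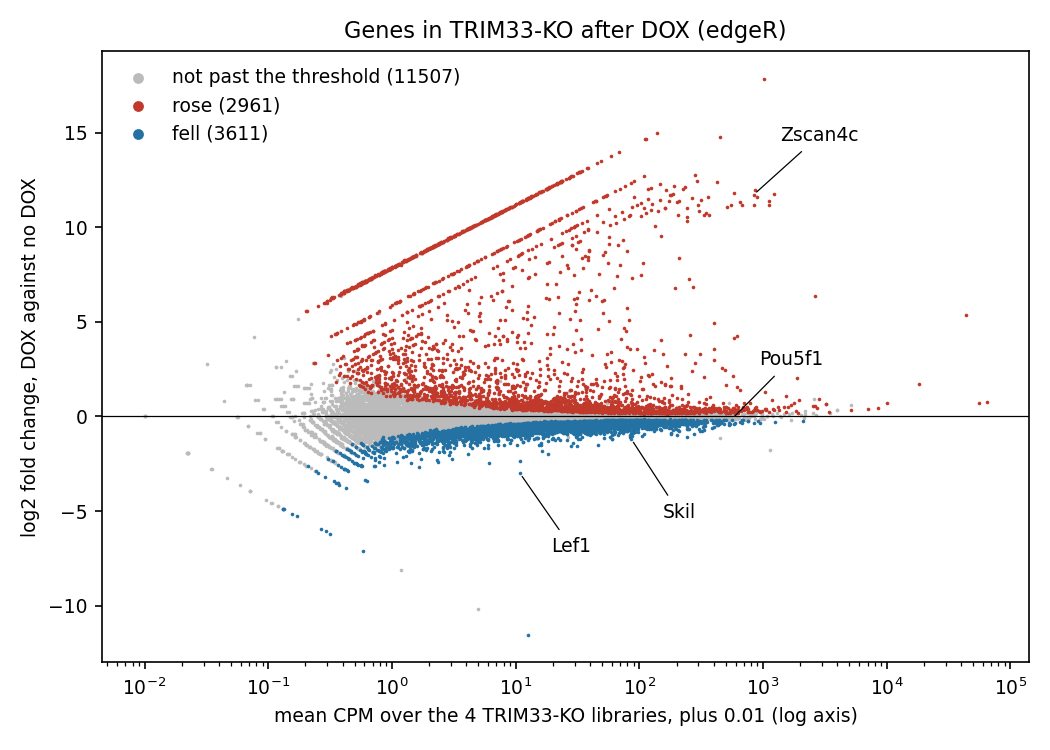
Log2 fold change with DOX of each tested gene in TRIM33-KO (vertical) against its mean level over the 4 libraries in CPM plus 0.01 (horizontal, log axis), coloured by the edgeR call. Rising genes (2961) spread to high fold changes, falling genes (3611) lie mostly close to 0, and the slanting lines of points are genes with no or few counts without DOX, whose fitted values are not bounds.

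Some of the rising genes started from few or no counts. At most 3 counts in each library without DOX were seen for 814 of the 2961, of which 261 are protein coding (32.1%), 217 are long noncoding RNAs (26.7%) and 290 are pseudogenes (35.6%). In all, 891 of the tested genes were at this floor. A gene at the floor entered the test only through other libraries in which it had counts, so the number and makeup of these genes are a description, as are counts of list members that start from the floor. Many pseudogenes are near copies of other genes, and how the deposited counting treated reads that match several copies is not given in the sources used here.

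The Zscan4 cluster on chromosome 7, whose zinc finger proteins act on telomeres in 2-cell-like cells, rose as a block. All 9 tested members rose, where 16.4% of all genes did, with a median log2 fold change of 11.62 against -0.09 over all genes. Zscan4c had 14 and 6 counts without DOX and 19625 and 14839 with it, or 0.696 and 0.288 against 1745 and 1609 CPM. The log2 change was 11.72 (SE 0.34, adjusted p = 8.58e-14), and 11.23 to 12.48 with any 1 of the 4 libraries left out. Of the 10 rising genes named by size, 7 belong to this cluster: Zscan4b (11.99), Zscan4-ps2 (11.81), Zscan4a (11.74), Zscan4c, Zscan4f (11.62), Zscan4e (11.41) and Zscan4-ps3 (11.16). Zscan4d rose by 11.16. The sizes rest on few uninduced counts: Zscan4b was at 13.47 and 11.27, Zscan4-ps2 at 12.92 and 11.19 and Zscan4a at 12.81 and 11.14 without replicate 1 or 2 of the uninduced group. Zscan4d ranged from 10.67 to 11.93 with any 1 of the 4 libraries left out. In every one of them both DOX libraries lay far above both libraries without DOX. The same cluster rose by a median of 8.20 in WT line 1 and 11.53 in WT line 2.

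The 250 bases before the start of Zscan4b and Zscan4f show how alike the starts of 2 members of the cluster are. The sequences are RefSeq's, on GRCm38.p6, and read towards the gene; capitals mark the 13 positions at which the pair differ when laid side by side without gaps, and 94.8% of positions are identical. These bases lie before the transcript, and likeness between the transcripts was not examined. Since the counting of reads that match several copies is not given, values of single members are uncertain.
Zscan4b, chr7:10905051-10905300, minus strand: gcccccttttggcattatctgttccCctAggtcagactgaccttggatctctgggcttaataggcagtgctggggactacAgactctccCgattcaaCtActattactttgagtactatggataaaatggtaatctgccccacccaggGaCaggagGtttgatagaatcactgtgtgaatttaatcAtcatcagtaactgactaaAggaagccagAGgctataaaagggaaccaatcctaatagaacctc
Zscan4f, chr7:11397665-11397914, plus strand: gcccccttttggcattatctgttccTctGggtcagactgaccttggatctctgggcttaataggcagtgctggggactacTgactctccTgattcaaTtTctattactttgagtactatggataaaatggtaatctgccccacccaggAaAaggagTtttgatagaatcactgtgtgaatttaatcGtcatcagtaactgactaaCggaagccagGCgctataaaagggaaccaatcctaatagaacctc

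The 3 other genes named by size were Usp17lb (log2 11.71), Usp17lc (11.61) and Sp110 (11.18). Without replicate 1 or 2 of the uninduced group, Usp17lb was at 10.81 and 15.33 and Usp17lc at 13.64 and 10.80, so their sizes are loosely set, while Sp110 ranged from 11.01 to 11.42 with any 1 of the 4 libraries left out. Usp17l genes encode deubiquitinating enzymes in a multicopy family, and all 5 tested members rose, where 16.4% of all genes did, with a median of 11.61, or 11.07 with floor genes held at their bound. Sp110, a nuclear body protein, had 8 and 11 counts without DOX and 12878 and 9701 with it. Of the Tcstv and Tdpoz families, 7 of 15 symbols are in the table under these names, all 7 were tested and all 7 rose from the floor, again beside 16.4% of all genes. Tcstv3 went from 1 and 1 counts to 3203 and 1999, at least 1710-fold higher, and Tcstv1 from 1 and 0 to 2733 and 1799, at least 1494-fold. The smallest bound in these families was that of Tdpoz5, at least 41.3-fold.

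Among 2-cell marker genes that are mostly single copies, 19 of 26 tested genes rose (73.1%, against 16.4% of all genes) and 1 fell (3.85%, against 20.0%). Their median was 7.55 against -0.09 over all genes, or 4.97 with floor genes at their bound. Zfp352, a zinc finger gene transcribed in the 2-cell embryo, had no count in either library without DOX and 3240 and 2478 with it, at least 1899-fold higher. Tmem92 went from 6 and 7 counts to 7585 and 5060 (log2 10.87). Spz1 went from 0 and 0 counts to 790 and 583, and Ubtfl1, a preimplantation HMG-box gene, from 1 and 0 to 1024 and 763. Dppa2, an activator of Dux, rose by 1.44 and Snai1 by 3.84. Rnf213 fell by 0.58 (adjusted p = 0.000300). The 6 that missed the threshold were Cyp2b23, Zscan5b, Zfp825, Dppa4, Gata2 and Pramel7, with log2 values from -0.47 to 1.46.

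The sequence before Zfp352 is shown because the gene went from no count to at least 2478. It is again RefSeq's on GRCm38.p6, 250 bases before the start read towards the gene, and capitals mark a 12-base word that a search for its most frequent word found 7 times.
Zfp352, chr4:90218570-90218819, plus strand: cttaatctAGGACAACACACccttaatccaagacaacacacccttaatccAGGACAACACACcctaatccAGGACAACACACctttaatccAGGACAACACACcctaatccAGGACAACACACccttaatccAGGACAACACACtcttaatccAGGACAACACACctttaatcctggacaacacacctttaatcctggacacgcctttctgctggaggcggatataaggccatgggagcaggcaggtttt
The DUX site TGATTNAATCA, which reads the same on both strands, was searched in all 32851 RefSeq windows of 300 bases (250 before and 50 after the start) and was found in 11, or 0.0335%. Of the tested genes with a window, 1 of 1594 that rose held it, 0 of 678 that rose by at least 1 on the log2 scale, and 0 of 2696 that fell. None of the promoters printed here holds it. They were chosen after the values were seen, for likeness within the cluster and for the size of the rise. The lack of a match says only that these letters are not in the window.

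Repeats changed more widely than genes. Of 965 tested subfamilies, 757 changed, or 78.4%: 747 rose (77.4%) and 10 fell (1.04%). The median log2 fold change was 1.21, and 546 subfamilies (56.6%) rose by at least 1, 265 by at least 2 and 47 by at least 4. Repeat CPM are relative to gene counts, so they are not diluted by the rise of the repeats themselves. With repeats in the library size, 732 still rose and 13 fell.

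MERVL-int, the internal part of MERVL, went from 2572 and 2121 counts without DOX to 1011817 and 695190 with it. In CPM this was 127.8 and 101.9 against 89941 and 75361, a log2 change of 9.49 (SE 0.22, adjusted p = 6.21e-15). Its share of all repeat counts went from 0.165% and 0.135% to 28.3% and 25.4%. MT2_Mm, its long terminal repeat, rose from 45.6 and 35.2 to 24381 and 20850 CPM (log2 9.13, SE 0.23). For both elements the DOX and the other libraries lay far apart. RLTR6B_Mm, a terminal repeat of the ERV1 class, rose by 7.31 on the log2 scale. ERVB4_3-LTR_MM, of the ERVK class, had 1 and 1 counts without DOX and 268 and 243 with it, at least 171.1-fold higher, and MLT2E, of the ERVL class, had 3 and 1 against 255 and 255, at least 171.6-fold.

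LTRIS4B, also named by size, rested on 1 library. It had 9 and 15 counts without DOX, 32 in DOX replicate 1 and 1722 in DOX replicate 2, the library with the high CT010467.1 share. Its log2 change of 7.29 (adjusted p = 0.00363) was 2.33 without that library (adjusted p = 0.550).

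Other retroviral, LINE and satellite elements rose less. IAPEz-int, the internal part of the intracisternal A particles, which TRIM28 and SETDB1 keep silent in ES cells, went from 208 and 192 to 1175 and 1017 CPM (log2 2.46, SE 0.13, adjusted p = 2.00e-11). MMERVK10C-int, another ERVK element, rose from 71.9 and 74.2 to 1230 and 1183 CPM, and RLTR10B from 5.32 and 5.23 to 19.3 and 20.3. GSAT_MM, the major satellite of mouse pericentromeres, rose from 6.81 and 7.16 to 672 and 687 CPM (log2 6.60, SE 0.25). L1Md_T, a young LINE-1 subfamily, was at 1191 and 1292 CPM without DOX and at 3573 and 5998 with it. Its log2 change was 1.95 (SE 0.41, adjusted p = 0.000340), the DOX libraries lay above both others, and DOX replicate 2 was the higher one; without that library the change was 1.59.

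**Figure D2:**
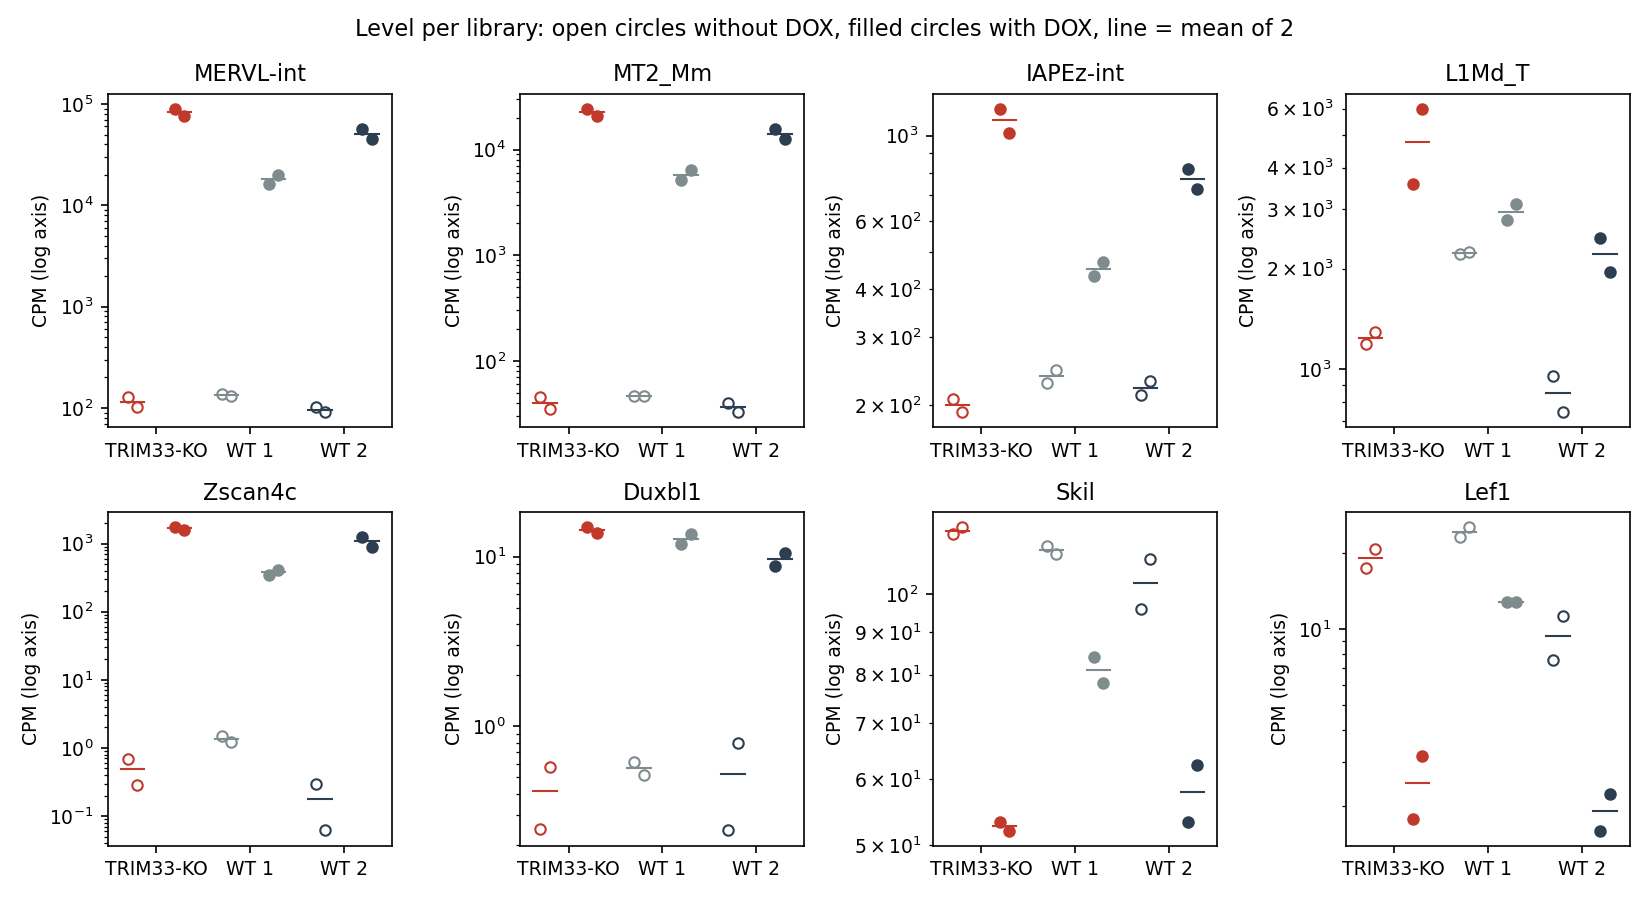
Level in CPM (log axis) of 4 repeat subfamilies and 4 genes in each library of TRIM33-KO, WT line 1 and WT line 2, without DOX (open circles) and with DOX (filled circles), with the mean of 2 as a line. MERVL-int and MT2_Mm with DOX were highest in TRIM33-KO and lowest in WT line 1, and Skil and Lef1 fell in TRIM33-KO (log2 -1.18 and -2.99), in WT line 1 (-0.47 and -0.91) and in WT line 2 (-0.83 and -2.27).

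By class, the shares are read against the 77.4% of all subfamilies that rose. Of ERVK subfamilies 241 of 271 rose, or 88.9% (median log2 1.62), and of ERVL-MaLR 81 of 91, or 89.0% (1.48). The share was near that of all subfamilies for ERV1, with 80 of 103 or 77.7% (1.38), and below it for ERVL, the class of MERVL, with 68 of 95 or 71.6% (1.31). Among LINE-1 subfamilies 109 of 127 rose, or 85.8% (1.39). All 5 B2 subfamilies rose, with a median of 1.96. B2_Mm1a, a young B2 SINE, went from 39200 and 37638 counts to 169582 and 157543 (log2 3.10). All 16 Alu-class (B1) subfamilies rose as well, with a median of 0.36. Of DNA transposons 32 of 68 hAT-Charlie subfamilies rose, or 47.1% (0.44), and 27 of 41 TcMar-Tigger, or 65.9% (0.68).

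The 10 subfamilies that fell were sparse: Chap1_Mam, Charlie22a, L1M3b, MER127, MER68B, MERX, MamRep564, ORSL-2a, Tigger14a and Tigger18a. None met the rule for naming, which asks for a mean of at least 100 counts, and they are named here after their values were seen. MER68B, for example, had 52 and 43 counts without DOX and 15 and 15 with it. With DESeq2, 736 subfamilies rose and 1 fell, and without DOX replicate 2 it was 741 and 5.

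**Figure D3:**
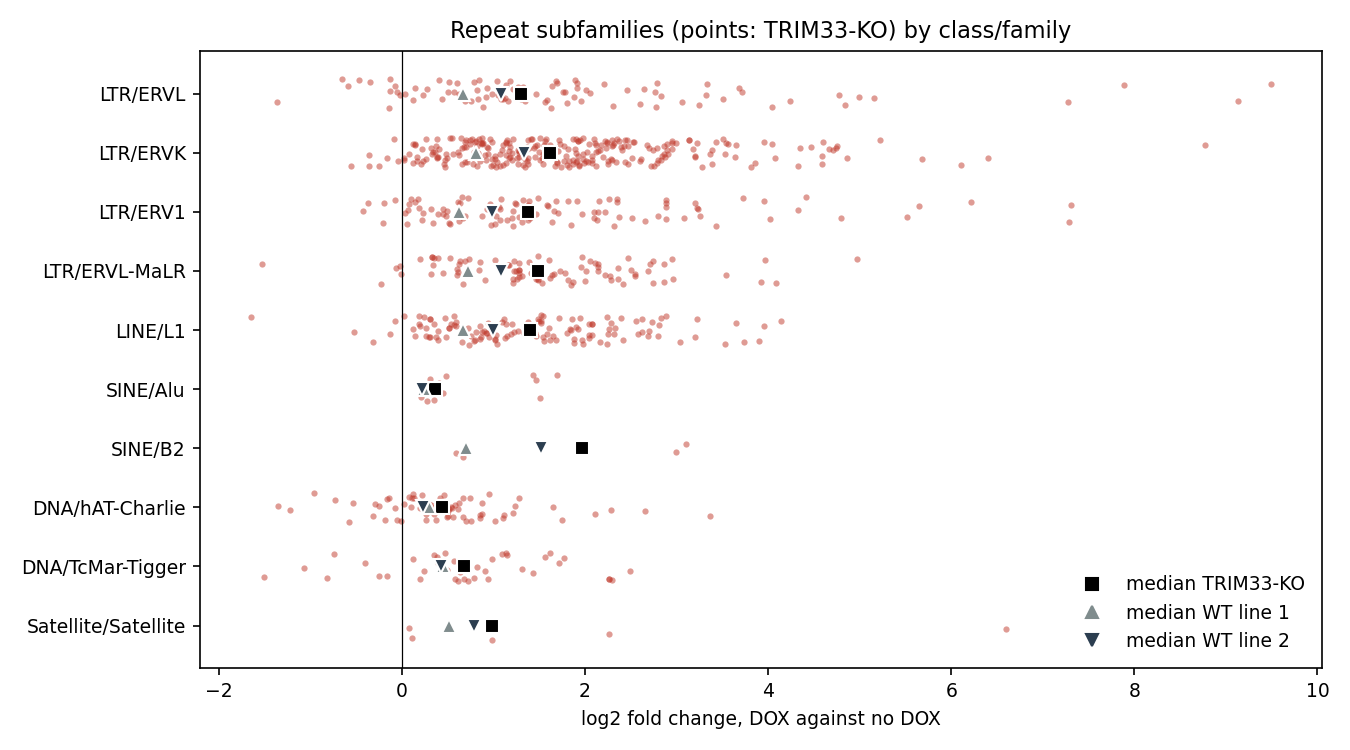
Log2 fold change with DOX of each tested repeat subfamily in TRIM33-KO (points), by class and family, with the family median in TRIM33-KO (squares), WT line 1 (upward triangles) and WT line 2 (downward triangles). In every family shown the TRIM33-KO median lies above both WT medians, as for ERVK at 1.62 against 0.80 and 1.33 and hAT-Charlie at 0.44 against 0.30 and 0.23.

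The genes that fell most by the naming rule were Rnu1b2, Lef1, Stc1, Bhlhe40, Bhlhe41, Rgs11, Egln3, Ltbp3, Aire and Maff. Lef1, a transcription factor of the Wnt pathway, had 352 and 432 counts without DOX and 20 and 29 with it. In CPM it went from 17.5 and 20.7 to 1.78 and 3.14 (log2 -2.99, SE 0.27, adjusted p = 1.84e-07). Stc1, a secreted glycoprotein, fell by 2.47, and the related circadian and hypoxia repressors Bhlhe40 and Bhlhe41 fell by 2.35 and 2.05. Egln3, an oxygen-dependent prolyl hydroxylase, went from 31.8 and 26.9 to 8.80 and 6.07 CPM. Aire, the autoimmune regulator, fell by 1.83, Rgs11, a G protein regulator, by 2.01, and Maff, a small Maf factor, by 1.69. In each of these genes both DOX libraries lay below both others.

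Rnu1b2, a copy of the U1 small nuclear RNA, is uncertain. It had 416 and 617 counts without DOX and 0 and 0 with it. The WT lines each had 1 DOX library at 0 and another at 41.7 CPM (line 1) or 19.9 CPM (line 2), the U1 genes are near-identical copies, and the adjusted p of 0.0298 became 0.0788 to 0.147 without replicate 2 of the uninduced group or either DOX library.

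Of 19 pluripotency genes tested, 2 rose, 10 fell and 7 missed the threshold, with a median of -0.34 against -0.09 for all genes, of which 16.4% rose and 20.0% fell. Pou5f1 (Oct4) was at 593 and 581 CPM without DOX and 559 and 500 with it (log2 -0.15, adjusted p = 0.117), and the fall passed the threshold with repeats in the library size (adjusted p = 0.033) and without DOX replicate 1 (0.04995). Sox2, its partner factor, fell by 0.71, Utf1 by 0.70 and Klf4 by 0.68. Esrrb, a nuclear receptor of the naive state, fell by 0.40. Nanog rose from 534 and 600 to 667 and 713 CPM (log2 0.28, adjusted p = 0.0083), a call that was lost without replicate 1 of the uninduced group (adjusted p = 0.0828). Dppa3 (Stella) rose by 1.21. Zfp42 (Rex1) had a log2 value of -0.27 (adjusted p = 0.0889) that passed the threshold with only the compared groups fitted (0.0148), with no filter on low counts (0.00078) and with repeats in the library size (0.0406).

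Of 35 genes that restrain the 2-cell-like state, 12 fell (34.3%, against 20.0% of all genes) and 6 rose (17.1%, against 16.4%), with a median of -0.13. The balance depended on the processing: 7 fell and 7 rose with median-of-ratios factors, 6 and 7 with DESeq2, 17 and 3 with repeats in the library size, and 5 and 6 without DOX replicate 2. Over all genes, where 3611 fell and 2961 rose, the counts moved as well. They were 2659 and 3480 with median-of-ratios factors, 1944 and 3021 with DESeq2, and 4448 and 2619 with repeats in the library size. Mga and its partner Max, which recruit the PRC1.6 complex, fell by 0.79 and 0.59, and E2f6 of the same complex by 0.48. Morc3 fell by 0.39 and the histone methyltransferase Ehmt2 (G9a) by 0.38. The rising members were Trim28 (0.50), Hdac1 (0.33), Uhrf1 (0.28), Setdb1 (0.22), Hdac2 (0.20) and Chaf1a (0.16). The calls of Uhrf1, Setdb1, Hdac2, Chaf1a and Ehmt2 were each lost without at least 1 of the 4 libraries.

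TRIM33 acts in the TGF-beta, Nodal and BMP pathway, and 4 lists cover its genes. Of all genes tested, 20.0% fell (3611) and 16.4% rose. The number of all genes that fell was 1944 with DESeq2 and 2659 with median-of-ratios factors. In this pathway ligands bind paired receptors, receptors phosphorylate SMAD proteins, and SMADs enter the nucleus and switch on targets that include their own inhibitors. Of the ligands and antagonists, 6 of 15 fell and 0 rose (median -0.46), and 4 fell with DESeq2 or without DOX replicate 2. Inhbb, an activin subunit, fell by 1.54, Lefty1, a Nodal antagonist, by 0.91, and Bmp4 by 0.71. Nodal itself had a log2 value of -0.15 and missed the threshold. Of 12 receptors and coreceptors, 4 fell and 1 rose: the activin and Nodal receptor Acvr1b fell by 0.94, Bmpr1b by 0.71, Bmpr1a by 0.48 and Bmpr2 by 0.27, while the coreceptor Eng rose by 0.45. With DESeq2, with median-of-ratios factors or without DOX replicate 2 only 2 of the 12 fell, and without that library 0 rose. The Bmpr1b and Bmpr2 calls were lost with DESeq2 and with median-of-ratios scaling, and those of Bmpr1b, Bmpr2, Lefty1 and Eng without at least 1 of the 4 libraries.

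Among SMADs and their regulators, 10 of 17 fell, Trim33 itself among them, and 0 rose (median -0.25). The count was 7 with DESeq2, with median-of-ratios factors and without DOX replicate 2. Skil (SnoN), a corepressor that SMADs induce and that restrains them, was at 117.9 and 120.2 CPM without DOX and 53.2 and 52.0 with it (log2 -1.18, SE 0.09, adjusted p = 9.99e-09), and the groups did not overlap. The inhibitory SMADs Smad6 and Smad7 fell by 1.03 and 0.99. Smad3 fell by 0.74 and Smad2 by 0.37, while Smad4 had a log2 value of 0.04. Of the pathway's target genes 10 of 20 fell and 2 rose (median -0.39). With DESeq2 6 fell and 2 rose, and without DOX replicate 2, which left 21 tested, 5 fell and 1 rose. Ltbp3, which binds latent TGF-beta, fell by 1.85. Ccn2 and the BMP target Id3 rose by 1.01 and 0.54. Skil, Smad6, Smad7, Lefty1 and Lefty2 stand in more than 1 of these lists. The Smad6 and Lefty2 calls were lost with DESeq2, with median-of-ratios scaling and without any 1 of the 4 libraries. That of Id3 was lost without at least 1 library. In the WT lines the medians were -0.37 and -0.37 for ligands, -0.21 and -0.09 for receptors, -0.18 and -0.32 for SMADs and -0.17 and -0.24 for targets.

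**Figure D4:**
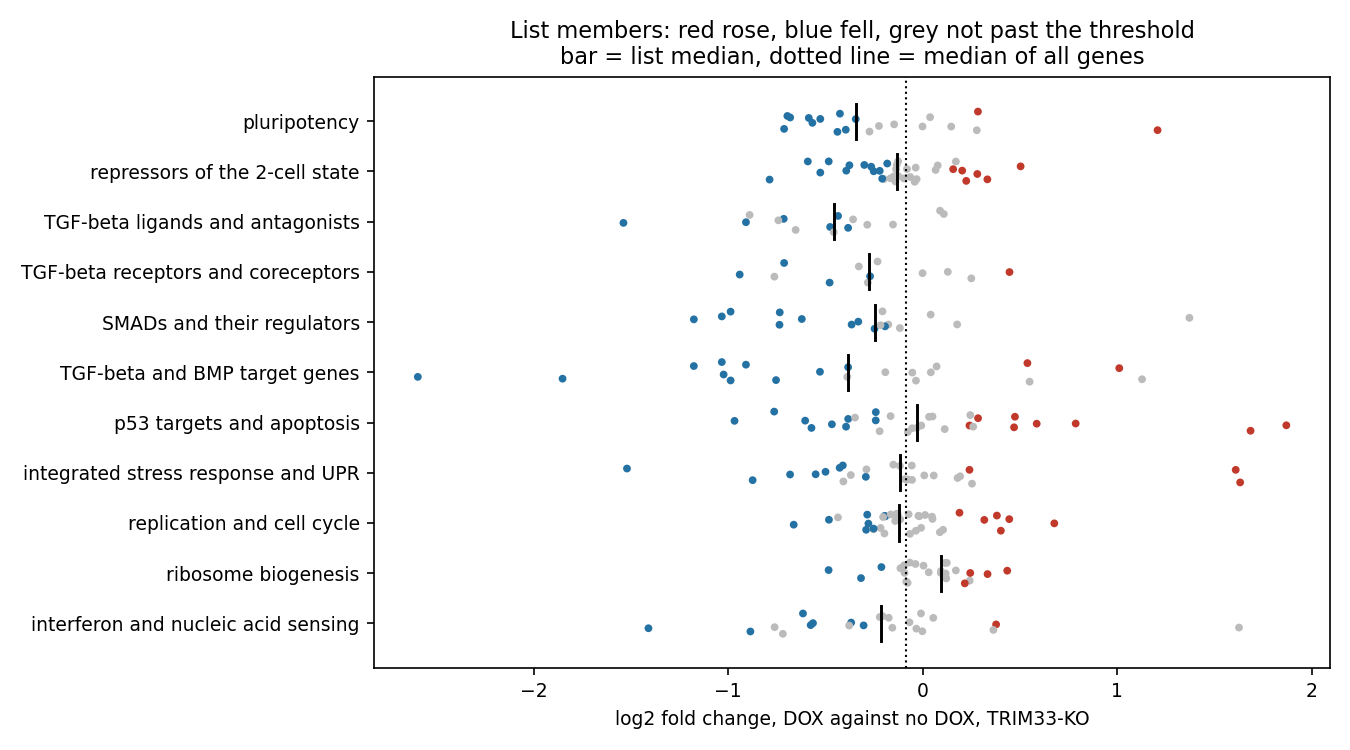
Log2 fold change with DOX in TRIM33-KO of each tested member of 11 gene lists (horizontal), coloured by the edgeR call, with the list median as a bar and the median of all genes as a dotted line. The medians of all lists but p53 (-0.03) and ribosome biogenesis (0.09) lie below that of all genes (-0.09). All lists but the TGF-beta ligands and the SMADs hold both rising and falling members.

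Stress lists held members of both directions. Over all genes 2961 rose and 3611 fell, or 3480 and 2659 with median-of-ratios factors and 3021 and 1944 with DESeq2. Of 29 p53 targets and apoptosis genes 8 rose (27.6%, against 16.4% of all genes) and 9 fell (31.0%, against 20.0%), with a median of -0.03. The falling count depended on the processing: 5 fell and 9 rose with median-of-ratios factors (median 0.04), 4 and 8 with DESeq2, and 2 and 8 without DOX replicate 2. Plk2, Btg2 and Pmaip1 (Noxa) rose by 1.87, 1.68 and 0.79, while Gdf15, Bbc3 (Puma) and Cdkn1a (p21) fell by 0.97, 0.76 and 0.38. Of 25 genes of the integrated stress response and the unfolded protein response, 3 rose and 8 fell (12% and 32%, median -0.12). With median-of-ratios factors 5 rose and 6 fell, and without DOX replicate 2 the balance turned to 5 that rose and 3 that fell (median -0.00047). The chaperone gene Dnajb9 rose by 1.63 and Ppp1r15a (GADD34), which restores translation after eIF2alpha phosphorylation, by 1.61. Vldlr fell by 1.52, Xbp1 by 0.87 and Chac1 by 0.68, and Atf4 had a value of -0.12. The Cdkn1a call was lost with DESeq2, and those of Cdkn1a, Gdf15 and Chac1 without DOX replicate 2.

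Of 36 replication and cell cycle genes 6 rose and 8 fell (median -0.12), or 16.7% and 22.2%, near the 16.4% and 20.0% of all genes. With DESeq2 and without DOX replicate 2, 6 rose and 3 fell, and with repeats in the library size 5 and 15. Over all genes 3021 rose and 1944 fell with DESeq2, and 2619 rose and 4448 fell with repeats in the library size. In the list Orc1, an origin recognition subunit, rose by 0.68, and the mitotic kinase Plk1 fell by 0.66. Of 25 ribosome biogenesis genes 4 rose and 3 fell (16% and 12%, median 0.09), with Nop56 up by 0.43, and 8 rose and 2 fell with DESeq2 or median-of-ratios factors. Without DOX replicate 2 it was 4 and 2. In the interferon and nucleic acid sensing list 7 of 22 fell (31.8%) and 1 rose (4.55%), with a median of -0.21. Ddx58 (RIG-I), a sensor of double-stranded RNA, fell by 0.89 and Eif2ak2 (PKR) by 0.58, and Stat2 rose by 0.38. The Stat2 call was lost without DOX replicate 1. Ifnb1 had no count in any of the 4 libraries.

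Of 15 mitochondrially encoded genes 10 rose (66.7%, against 16.4% of all genes) and 0 fell (against 20.0%), with a median of 0.62 against -0.09 over all genes, and mt-Nd3 had no count in any of the 4 libraries. Their summed level was 95438 and 125130 CPM without DOX and 156850 and 199090 with it, and its part in the other results was not tested. The summed level was higher with DOX in the WT lines too, at 128250 and 143040 against 112580 and 107060 in line 1 and at 127480 and 122100 against 81256 and 94186 in line 2. The calls of mt-Nd1 and mt-Nd2 were lost without replicate 1 of the uninduced TRIM33-KO group, and that of mt-Nd6 without replicate 2. The member mt-Co2 had 0 counts in DOX replicate 2 of TRIM33-KO.

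Markers of other cells are read against the 16.4% of all genes that rose and the 20.0% that fell. Fibroblast markers were inspected because the growth protocol allows a feeder layer of fibroblasts. Of 20 markers 10 were tested, 3 rose and 1 fell, and the summed level ran from 1919 to 1970 CPM without DOX and from 1690 to 1761 with it, nearly all of it Fn1, which averaged 1776 and 1576 CPM. Postn, Dcn, Lum and S100a4 had no count in any of the 4 libraries. Col1a2, Col1a1 and Fbn1 rose by 1.41, 0.78 and 0.72, from means of at most 6.32 CPM. Of trophoblast markers 5 of 13 fell, Ascl2 by 2.41 (1.72 and 3.38 without DOX replicate 1 or 2) and Tfap2c by 0.81, and 0 rose. Of primitive endoderm markers 2 of 12 fell, or 16.7% (Sox7 and Hnf4a, median -0.19), and without DOX replicate 2 it was 0 (median 0.07). Of ectoderm and primed markers 3 of 8 fell and 2 rose (Otx2 by -1.50 and Sox3 by 2.20), and without that library 2 and 2. Of mesoderm markers 1 of 4 fell (Eomes), and without that library 0. The Eomes and Hnf4a calls were lost with DESeq2, and those of Eomes, Hnf4a, Sox7, Col1a1 and Col1a2 without DOX replicate 1.

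The response was then set beside that of the WT lines. DOX raised 1801 genes in WT line 1 (9.96% of those tested) and lowered 1106 (6.12%), and it raised 2289 (12.7%) and lowered 2499 (13.8%) in WT line 2. Of the 2961 genes that rose in TRIM33-KO, 1608 also rose in line 1, which is 54.3% of the TRIM33-KO list and 89.3% of the line's, and 2136 in line 2, 72.1% and 93.3%. Of the 3611 that fell, 935 also fell in line 1 (25.9% and 84.5%) and 2074 in line 2 (57.4% and 83.0%). No gene that rose in TRIM33-KO fell in either line, and 5 that fell in TRIM33-KO rose in line 1. A call in one and not in another line is no test of a difference, which follows.

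The difference between the DOX effect in TRIM33-KO and the mean effect in both WT lines passed the threshold for 100 genes, 0.553% of those tested, of which 86 were higher (0.476%) and 14 lower (0.0774%) in TRIM33-KO. With 1 library left out the higher genes numbered 20 (without DOX replicate 1 of TRIM33-KO) to 102, and the lower genes 0 (without replicate 1 of its uninduced group) to 29 (without DOX replicate 1 of WT line 2). For repeats it passed for 396 subfamilies, 41.0%, of which 393 were higher (40.7%) and 3 lower (0.311%; L1M3b, MamRep564 and ORSL-2a, all with 22 counts or fewer in each TRIM33-KO library). The result depended on the reference. Against WT line 1 alone, 281 genes (1.55%) and 449 repeat subfamilies (46.5%) differed. Against WT line 2 alone, 0 genes (0%) and 1 subfamily, L1MC2 (0.104%), differed by edgeR. Without adjustment 816 genes (4.51%) and 246 subfamilies (25.5%) had a p under 0.05 against line 2, and DESeq2 called 17 genes and 100 subfamilies. The line from which the TRIM33-KO cells came is not given, so a difference by genotype and a difference between lines cannot be told apart.

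For MERVL-int the log2 rise was 9.49 in TRIM33-KO, 7.06 in WT line 1 and 9.04 in WT line 2. The difference from their mean was 1.44 (adjusted p = 0.000185). Against line 1 it was 2.43 (adjusted p = 6.79e-06) and against line 2 it was 0.45 (95% interval -0.02 to 0.92, adjusted p = 0.210). With DOX, MERVL-int stood at 16217 and 19775 CPM in line 1 and at 57014 and 44909 in line 2, below both TRIM33-KO libraries. MT2_Mm gave 1.37 against the mean and 0.53 against line 2 (interval 0.05 to 1.02, adjusted p = 0.162). IAPEz-int gave 1.09 against the mean and 0.65 against line 2 (interval 0.29 to 1.02, adjusted p = 0.065).

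Over all 965 subfamilies the median difference was 0.44 from the mean of both lines, 0.59 from line 1 and 0.28 from line 2, and 821, 821 and 781 of the values were above 0. Subfamilies of one library share its scaling and its reads, so this is a description. By family the median rise was 1.62 in TRIM33-KO against 0.80 and 1.33 in the WT lines for ERVK, 1.39 against 0.67 and 0.99 for LINE-1, and 1.96 against 0.70 and 1.52 for B2. The repeat share of all counts with DOX was 11.8% and 11.999% in WT line 1 and 19.3% and 17.3% in WT line 2, against 23.0% and 18.9% in TRIM33-KO. The 18.9% is that of DOX replicate 2, in which CT010467.1 took 12.9% of gene counts, against 0.363% and 0.394% in WT line 2 with DOX. These counts enlarge the total of that library, so its share is lowered by them.

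**Figure D5:**
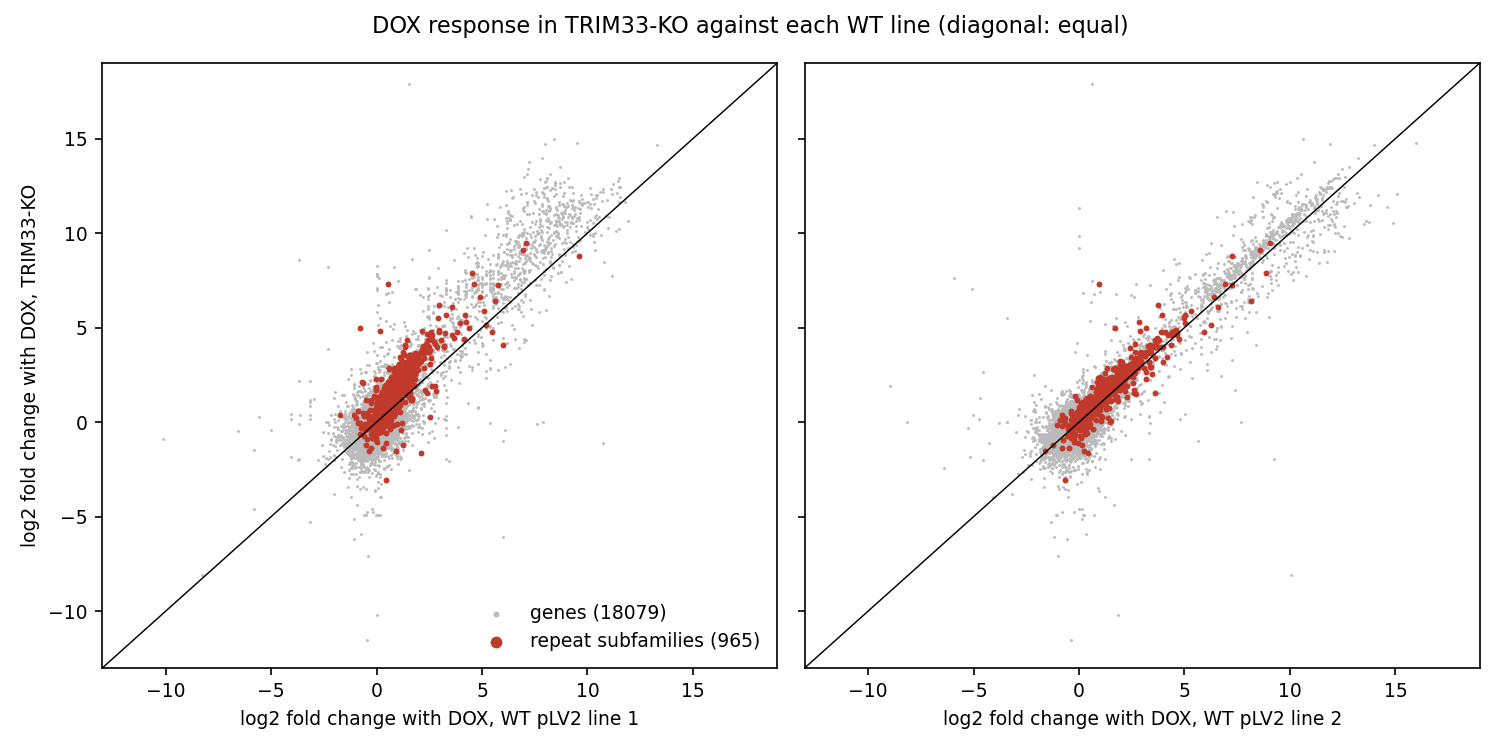
Log2 fold change with DOX in TRIM33-KO (vertical) against that in WT line 1 (left) and WT line 2 (right) for 18079 genes and 965 repeat subfamilies, with a diagonal of equal change. Repeats lie mostly above the diagonal against line 1 (median difference 0.59) and closer to it against line 2 (0.28); fitted values of genes with no counts without DOX are not bounds.

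Among genes with a larger rise in TRIM33-KO, the smallest p values belonged to Arhgap8, Zfp809, Rxra, Fbxl12, Ncoa2 and P4ha2. Zfp809, a zinc finger repressor that recruits TRIM28 to retroviral DNA, went from 17.2 and 15.9 to 132.6 and 124.3 CPM. Its log2 rise was 2.96 against 1.54 and 2.13 in the WT lines, a difference of 1.12 (adjusted p = 0.00178). Rxra, the retinoid X receptor alpha, rose by 3.54 against 2.03 and 2.88, and its coactivator Ncoa2 by 2.40 against 0.98 and 1.72. P4ha2, a collagen prolyl hydroxylase, rose by 4.29 against 3.21 and 3.55. Arhgap8, a GTPase-activating protein, rose by 1.85 against 0.23 and 1.20, and Fbxl12, an F-box protein, by 2.03 against 0.71 and 1.24. Against line 2 alone none of the 6 passed the threshold, with differences from 0.65 to 0.83.

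Among genes with a larger fall, the rule named Pfkfb3, Plekha2, Elf3, Gli2, Arid2 and Gabbr1. Pfkfb3, a regulator of glycolysis, went from 23.9 and 22.1 to 8.80 and 7.37 CPM, a fall of 1.50 on the log2 scale against -0.21 and -1.08 in the WT lines (difference -0.86, adjusted p = 0.0099). Gli2, a transcription factor of the Hedgehog pathway, went from 113.7 and 114.5 to 53.5 and 55.4 CPM, with a difference of -0.53. Skil, in the list of SMAD regulators, had a difference of -0.52 (adjusted p = 0.0291), from effects of -0.47 and -0.83 in the WT lines. Each of these 7 calls was lost against line 2 alone and without at least 1 single library. Lef1 had a difference of -1.39 that missed the threshold (adjusted p = 0.110).

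For the Zscan4 genes this test was imprecise. The difference was 1.46 for Zscan4c (SE 0.69, adjusted p = 0.515) and 1.65 for Zscan4b (adjusted p = 0.565). The mean hides a split: Zscan4c rose by 3.61 more than in line 1 (adjusted p = 0.00462) and by 0.70 less than in line 2 (95% interval of the difference -2.54 to 1.14, adjusted p = 1.00). With DOX, Zscan4c stood at 1745 and 1609 CPM in TRIM33-KO, 344 and 413 in WT line 1 and 1269 and 893 in WT line 2. Over all gene lists, each gene counted once, 5 of 354 tested members (1.41%) passed the threshold for a difference from the mean of the WT lines, beside 0.553% of all genes. Among them was Tmem132c, a membrane protein gene in the list of 2-cell markers, which went from 1.44 and 0.816 to 223 and 188 CPM with a difference of 2.21 (adjusted p = 0.00610). The others, besides Skil, were Plk2 (0.82, adjusted p = 0.0176), Ppp1r15a (0.79, adjusted p = 0.00449) and the pluripotency gene Klf2 (-0.46, adjusted p = 0.0355). Against line 2 alone none of these 4 passed, and the calls of Tmem132c, Plk2 and Klf2 were lost without replicate 2 of the uninduced TRIM33-KO group. Those of Plk2 and Klf2 were also lost without replicate 1 of that group, without DOX replicate 1 of TRIM33-KO and without replicate 2 of uninduced WT line 1. The Klf2 call was lost with median-of-ratios scaling and without several further WT libraries as well.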

How the data were processed

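Libraries were strand-specific and rRNA-depleted, with paired reads of 75 bp, per the labels' protocols. Of tools, the submitters' processing notes name bcl2fastq 2.20.0, cutadapt 1.18 and STAR 2.7.6a, with build mm10. Which program counted, and what became of multiply mapped reads, is not given in the sources used here. The deposited tables, 1 per library, hold raw counts for 55487 gene IDs and 1146 repeat subfamilies. Of the IDs, 54435 matched GENCODE M21 with their version and 792 without it.

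All 16 pLV2 libraries entered 1 edgeR 4.0.16 quasi-likelihood fit (R 4.3.3, 2-sided tests) with a mean per group and TMM factors from genes; TRIM24-KO libraries served only the shared spread. Filtering by filterByExpr left 18079 genes and 965 subfamilies. Both kinds were scaled by gene library size and received separate Benjamini-Hochberg adjustment, at a threshold of 0.05. CPM and folds were computed here from the deposited counts. A group with at most 3 counts in each library was at the floor, and its fold is a bound against 3 counts per library, covering counting error only. Replicate spread in the fit amounted to a CV of 8.73%. On simulated data for this DOX comparison (18079 genes) the fit recovered 57% of 100 genes changed by log2 1 and 83% of 100 changed by log2 2, and 6.04% of its calls were false. No other gene was changed in the simulation, whereas 36.4% of genes were called in the data. The adjusted threshold depends on that share, so these rates are not the power of the real comparison.

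The members and lists were chosen with earlier results of these data known. Named features are a fixed set; the 10 genes per direction that changed most with DOX (called, groups not overlapping, at least 50 counts on average, no clone-type symbol, floor genes ranked by their bound); up to 6 repeat subfamilies per direction likewise at 100 counts; the 6 genes and 4 subfamilies per direction with the smallest p for the difference from WT and the same sign against each line; and called or textbook members of each list. Printed promoters were to hold the DUX site; as none of the named genes did, others were chosen after seeing the data. Alternatives were DESeq2 1.42.0, other scalings and filters, the replicate block, the compared groups alone, each WT line alone and each library left out. DESeq2 against single WT lines was added after seeing the data. The 8 libraries without the pLV2 mark were not used here.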

Additional observations from a re-analysis of the deposited data

Results flagged for a closer look

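The DOX effect differed between TRIM33-KO and the mean of both WT lines, by the interaction test of edgeR with Benjamini-Hochberg adjustment, for 100 genes and 396 repeat subfamilies. Each value below is the difference of 2 log2 fold changes, TRIM33-KO minus WT.

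Among repeats the difference was 1.44 for MERVL-int, 1.37 for MT2_Mm, 1.09 for IAPEz-int, 1.18 for MMERVK10C-int and 0.96 for GSAT_MM, the major satellite. For GSAT_MM it was 1.71 against WT line 1 and 0.21 against WT line 2 (adjusted p = 0.739), and the call was lost without replicate 1 of TRIM33-KO without DOX (adjusted p = 0.063). Against WT line 2 alone none of these 5 passed the threshold. The 4 subfamilies with the smallest p values were MERVL_2A-int (1.24), MTEb (0.70), MLT1L (1.33) and L1MC2 (0.90). L1MC2, an old LINE-1 subfamily, went from 13.7 and 12.8 to 79.7 and 76.2 CPM and was the only subfamily past the threshold against WT line 2 alone.

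Among genes the difference was 1.14 for Arhgap8, 1.12 for Zfp809, 1.09 for Rxra, 1.05 for Fbxl12, 1.05 for Ncoa2 and 0.92 for P4ha2. It was -0.86 for Pfkfb3, -0.68 for Plekha2, -0.50 for Elf3, -0.53 for Gli2, -0.40 for Arid2, -0.48 for Gabbr1 and -0.52 for Skil. Among other list members it was 2.21 for Tmem132c, 0.82 for Plk2, 0.79 for Ppp1r15a and -0.46 for Klf2.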

How the results depend on the processing

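With DOX in TRIM33-KO, 2230 genes passed the threshold with an absolute log2 fold change of at least 1, and leaving out 1 library gave 4360 to 5115 genes, the lowest without DOX replicate 1. Repeats gave 716 to 746 when a library was left out. For the difference from WT, the gene count was 326 with no filter on low counts, 185 with DESeq2, 36 with an absolute log2 of at least 1, 281 against WT line 1 alone and 0 against WT line 2 alone. It was 23 to 131 with 1 library left out, the lowest without TRIM33-KO DOX replicate 1. Other values below 100 by over 1.5 times were 29 and 35 without replicate 1 or 2 of TRIM33-KO without DOX, 55 and 49 without replicate 1 or 2 of WT line 1 without DOX, and 55 without DOX replicate 1 of WT line 1. Repeats gave 79 at an absolute log2 of at least 1, 1 against WT line 2 alone, and 297 to 398 with 1 library left out. No call among the named values reversed; of values that had missed the threshold, Smad4 turned to -0.014 with repeats in the library size, and Atf4 ranged from -0.18 to 0.0043 with 1 library left out. Replicate numbers do not pair the samples by any label, and the replicate-1 deviations of the 2 TRIM33-KO groups correlated at 0.064. The replicate block gave 6750 genes and 759 repeats for DOX, and 106 and 397 for the difference. With 2 libraries a group, the power to detect a difference from WT in genes near the floor was not tested.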

Other observations

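The features here were chosen after their values were seen. The gene mt-Co2 had 30710 and 42075 counts without DOX, 11670 in DOX replicate 1 and 0 in DOX replicate 2. The unprocessed pseudogene Gm28661 on chromosome 1 had 0 and 0 counts without DOX and 15560 and 24676 with it, and it passed the threshold (adjusted p = 0.000312), while mt-Co2 did not (adjusted p = 0.428). Whether reads of one were counted for the other was not tested.

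Several features besides CT010467.1 were far higher or lower in DOX replicate 2 than in DOX replicate 1. Lars2, a mitochondrial leucyl-tRNA synthetase gene, had 1431 and 1169 counts without DOX, 3446 in DOX replicate 1 and 93077 in DOX replicate 2. Mir6236 had 77, 113, 222 and 9798 counts in the same order, and Gm15564 had 60, 82, 150 and 6990. In each of them DOX replicate 1, which had fewer gene counts in all, also lay above both libraries without DOX. Each passed the threshold (adjusted p of 0.00367, 0.00499 and 0.00524), and the size of the rise was set mostly by DOX replicate 2. Hist1h2bq had 247, 1265, 370 and 0 counts and missed it.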
